A study of Mus musculus with 9 samples.

Results

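The AP-1 genes of the Jun, Fos and Batf families were followed across 3 mouse myeloid cell lines. They were chosen by name, with earlier results of these data known. The Jun genes were *Jun*, *Junb* and *Jund*, and the Fos genes *Fos*, *Fosb*, *Fosl1* and *Fosl2*. With *Batf*, *Batf3* and *Atf3* these made 10 of the 54347 genes listed. Poly-A RNA was sequenced from 3 libraries of each line. The first pair of lines, Hox-WT and Hox-URE, holds progenitors immortalized with an estrogen-regulated Hoxb8, from a wild-type mouse and from a mouse of genotype UREd/d, in which the URE (upstream regulatory element), a distal enhancer of the PU.1 gene *Spi1*, is deleted. URE-AML, listed as B22 in the sample labels, is a line of blasts from an acute myeloid leukemia (AML) of the same genotype. All cultures received IL-3, IL-6, SCF and estradiol. Each combination of genotype and stage stood on 1 line, and the study describes Hoxb8 immortalization for the Hox lines only. Genotype, stage, way of immortalization and line thus cannot be told apart. The p-values measure the spread between libraries of a line, which were not stated to be separate cultures.

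AP-1 is a dimer of leucine zipper proteins. Fos proteins bind DNA only as partners of Jun proteins, while Jun proteins also pair with themselves, and Batf and Atf3 pair with Jun proteins as well. The dimer binds the TRE letters TGACTCA or TGAGTCA, or the longer CRE letters TGACGTCA when a partner comes from the Atf group. Many of these genes are immediate-early genes, induced within minutes by MAP kinase signalling. In myeloid cells PU.1 works beside Jun at monocyte genes such as *Csf1r*, and Batf binds with the PU.1 partners Irf4 and Irf8 at composite sites.

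The 10 genes lie on 7 chromosomes of GRCm38 and are protein-coding. *Jun* (chromosome 4, 95049034 to 95052222, minus strand) and *Jund* (chromosome 8, 70698949 to 70700616, plus strand) were annotated with 1 exon. *Junb* lies on chromosome 8 (84974484 to 84978718, minus strand). *Fos* (chromosome 12, 85473890 to 85477273, plus strand) and *Batf* (chromosome 12, 85686669 to 85709087, plus strand) stand 209.4 kb apart. *Jdp2*, the gene of a repressive Jun partner, lies between them (85599027 to 85639878, plus strand). *Batf3* (chromosome 1, 191097847 to 191108945, plus strand) and *Atf3* (chromosome 1, 191170296 to 191218039, minus strand) are 61.4 kb apart. *Fosb* lies on chromosome 7 (19302696 to 19310051, minus strand), *Fosl1* on chromosome 19 (5447547 to 5455946, plus strand) and *Fosl2* on chromosome 5 (32135801 to 32157842, plus strand).

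Promoter sequence is shown for *Jun* and *Fos*, which had higher levels in both URE lines, and for the collagenase gene *Mmp13*, the AP-1 target with the widest range of levels. Each stretch holds the 250 bases before the RefSeq start (GRCm38.p6), read 5′ to 3′ on the strand of the gene. Capitals mark letters found by a search for AP-1 and CRE letters. *Jun* spans chr4:95052223-95052472 (minus strand), *Fos* chr12:85473640-85473889 (plus strand) and *Mmp13* chr9:7272264-7272513 (plus strand).
Jun: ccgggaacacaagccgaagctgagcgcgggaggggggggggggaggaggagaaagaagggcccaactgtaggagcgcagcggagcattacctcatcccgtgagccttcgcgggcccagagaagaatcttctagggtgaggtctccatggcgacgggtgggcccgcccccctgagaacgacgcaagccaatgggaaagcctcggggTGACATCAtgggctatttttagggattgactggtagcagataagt
Fos: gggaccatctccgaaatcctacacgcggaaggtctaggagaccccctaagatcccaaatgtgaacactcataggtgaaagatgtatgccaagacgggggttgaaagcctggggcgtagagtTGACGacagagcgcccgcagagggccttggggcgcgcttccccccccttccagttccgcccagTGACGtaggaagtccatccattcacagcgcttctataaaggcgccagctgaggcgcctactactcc
Mmp13: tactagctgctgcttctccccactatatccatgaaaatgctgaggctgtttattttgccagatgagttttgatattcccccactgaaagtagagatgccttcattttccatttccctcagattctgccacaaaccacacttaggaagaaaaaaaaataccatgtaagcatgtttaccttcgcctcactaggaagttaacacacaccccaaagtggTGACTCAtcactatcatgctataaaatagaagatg
In the *Jun* promoter the letters TGACATCA, a known AP-1 site of this gene at which Jun acts on its own promoter, began 45 bases before the start. The *Fos* promoter held the CRE core TGACG 129 and 66 bases before the start. In the *Mmp13* promoter the full AP-1 letters TGACTCA began 35 bases before the start.

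Letters were searched on both strands of 300-base windows, from 250 bases before to 50 after a start, which were found for 9 of the 10 AP-1 genes. The RefSeq start matched the annotated gene start given above for *Jun* and *Fos* and lay within 60 bases of it for *Junb*, *Fosb* and *Batf*. For *Jund* it lay 1210 bases upstream, and for *Batf3*, *Fosl2* and *Atf3* it lay 567, 671 and 34706 bases inside the gene. All 250 upstream bases of *Fosl2* and 163 of those of *Batf3* were annotated exon. Which start these lines use was not tested, and the counts are also given for the 5 windows near the annotated start. TGANTCA, with any base at N and so wider than the TRE letters, was in 0 of the 9 windows and in 7.81% of all 32851 windows. TGACGTCA (1.79% of all windows) and the CArG box (1.63%), the site of serum response factor, were also in 0 of the 9, and the same 3 were in 0 of the 5. TGACATCA was in 1 of 9, that of *Jun*, and so in 1 of the 5 (3.62% of all windows). The core TGACG, which TGACGTCA contains, was in 5 of 9, those of *Junb*, *Fos*, *Fosb*, *Batf* and *Atf3*, and in 4 of the 5 (20.8% of all windows). The PU.1 letters GAGGAA were in 2 of 9, those of *Batf3* and *Atf3*, and in 0 of the 5 (28.3% of all windows). Of 14 AP-1 target genes listed, 9 had a window, and TGANTCA was in 4 of them (*Mmp13*, *Plaur*, *Il6* and *Mt2*). Matching letters describe these windows and do not show binding. Letters farther upstream or downstream were not searched, so a count of 0 does not mean that a gene lacks the site.

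Levels are given as CPM, the counts of a gene scaled to the size of its library, and the depth of each library was 20331064 to 28588718 counts. A floor of 3 counts corresponded to 0.104 to 0.153 CPM, which covers counting error only. Calls required an edgeR adjusted p under 0.05 together with a change of more than 1.5-fold. Of the 10 AP-1 genes 7 passed the filter on low counts and were tested, among 13082 genes. *Fosb*, *Batf3* and *Atf3* did not pass. In bulk libraries, fewer cells with a transcript and less RNA per cell cannot be told apart.

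Hox-URE had more *Jun*, *Jund* and *Fos* RNA than Hox-WT, and edgeR called 0 members lower. At an unadjusted p under 0.05, 1 was lower (*Batf*), and DESeq2 called 0. With scaling by library size only, *Batf* was called lower too, which made 4 members called, 3 higher and 1 lower. Called genes were thus 3 of 7 tested, all higher, where 37.2% of all genes tested were called, 21.3% higher and 15.9% lower. URE-AML had higher levels of *Jun*, *Jund* and *Fos* than Hox-WT, again with 0 members called lower by the main edgeR fit. With an unadjusted p under 0.05, 3 were lower (*Fosl1*, *Fosl2* and *Batf*). DESeq2 called 2 lower, as did edgeR with a block on replicate number. Of all genes 43.2% were called, 23% higher and 20.2% lower. Between the URE lines, *Jun* was called higher and *Fosl1* and *Fosl2* lower in URE-AML, while at an unadjusted p under 0.05 there were 1 higher and 4 lower, *Junb* and *Jund* being added. The calls are 3 of 7 again, against 42.7% of all genes, 20.3% higher and 22.4% lower. As a share, 42.9% of the tested members were called in each comparison, which is close to the share of all genes. Without library 3 of Hox-WT, 1 or 3 of Hox-URE, or 1 of URE-AML, 5 members were called in URE-AML against Hox-WT, and without library 3 of Hox-URE 5 were called in Hox-URE against Hox-WT. These include *Fosb* in the fit without library 1 of URE-AML and *Atf3* in the fit without library 3 of Hox-URE, where each passed the filter. Each passed only through libraries of the line where it was high, so the calls of *Fosb* and *Atf3* are not support for a difference. The comparisons against Hox-WT share its 3 libraries. The median log2 fold change of the tested members was 0.44, -0.13 and -0.30 in the 3 comparisons, with a median of 0 over all genes each time.

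**Figure D1:**
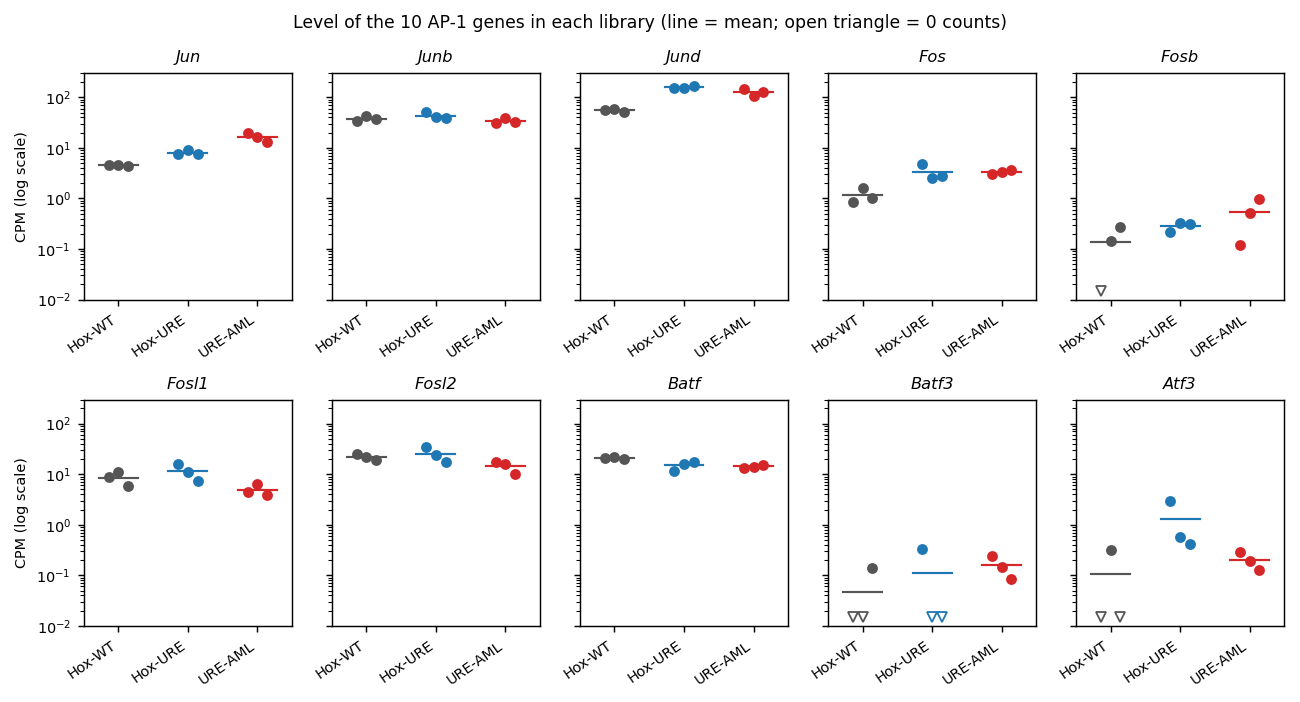
CPM on a log axis of each of the 10 AP-1 genes in the 9 libraries, by line, with a bar at the mean of each line and open triangles for libraries with 0 counts. *Jun* steps up from Hox-WT (4.32 to 4.69 CPM) through Hox-URE (7.61 to 8.91 CPM) to URE-AML (13.1 to 20 CPM), while *Fosb*, *Batf3* and *Atf3* sit near the floor in most libraries.

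*Jun*, the family's founding member and its strongest activator, rose from line to line. It stood at 4.69, 4.57 and 4.32 CPM in libraries 1 to 3 of Hox-WT, at 7.61, 8.91 and 7.71 CPM in Hox-URE and at 20, 16.8 and 13.1 CPM in URE-AML. No 2 lines overlapped. Mean levels were 4.53 ± 0.185, 8.08 ± 0.722 and 16.7 ± 3.43 CPM (SD, n = 3). Hox-URE exceeded Hox-WT 1.78-fold (log2 0.84 ± 0.17 SE, edgeR adjusted p = 0.00248). The URE-AML level was 3.68-fold that of Hox-WT (log2 1.88 ± 0.17 SE, edgeR adjusted p = 7.96e-06) and 2.06-fold that of Hox-URE (log2 1.04 ± 0.17 SE, edgeR adjusted p = 0.000428). When tested against a fold change of 1.5 rather than 1, the step from Hox-WT to Hox-URE no longer passed (edgeR adjusted p = 0.0967).

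*Jund*, a Jun protein that is present in resting cells, was the most abundant AP-1 transcript and was higher in both URE lines. Its levels were 56.3, 57.5 and 52 CPM in Hox-WT, 153, 151 and 166 CPM in Hox-URE and 149, 104 and 129 CPM in URE-AML. Every URE library exceeded every Hox-WT library. Fold changes against Hox-WT were 2.84 for Hox-URE (log2 1.5 ± 0.12 SE, edgeR adjusted p = 5.54e-06) and 2.30 for URE-AML (log2 1.2 ± 0.12 SE, edgeR adjusted p = 1.67e-05). The URE lines did not overlap each other, with log2 -0.30 for URE-AML against Hox-URE (95% interval -0.57 to -0.03), which did not pass (edgeR adjusted p = 0.0546).

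*Junb*, whose protein often restrains Jun, was measured at similar levels in the 3 lines. It had 34.6, 42.4 and 36.5 CPM in Hox-WT, 50.4, 40 and 39.3 CPM in Hox-URE and 31.4, 39.4 and 33 CPM in URE-AML. The ranges of all 3 lines overlapped. The log2 fold change was 0.19 for Hox-URE against Hox-WT (95% interval -0.11 to 0.50), -0.13 for URE-AML against Hox-WT (-0.43 to 0.18) and -0.32 for URE-AML against Hox-URE (-0.63 to -0.02), with edgeR adjusted p of 0.26, 0.448 and 0.0672. *Junb* was thus the Jun gene without a call, and the difference between its change and that of its relatives was not tested.

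*Fos*, the short-lived partner induced first after stimulation, was low in all lines and higher in both URE lines. The libraries had 0.862, 1.64 and 1 CPM in Hox-WT, 4.81, 2.53 and 2.81 CPM in Hox-URE and 3.07, 3.33 and 3.69 CPM in URE-AML, from 23 to 132 counts per library. No URE library fell to the Hox-WT range. The excess over Hox-WT was 2.89-fold in Hox-URE (log2 1.53 ± 0.34 SE, edgeR adjusted p = 0.00356) and 2.87-fold in URE-AML (log2 1.52 ± 0.34 SE, edgeR adjusted p = 0.0032). URE-AML against Hox-URE gave log2 -0.01, with a 95% interval of -0.73 to 0.71 that leaves room for a difference in either direction.

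*Fosl1* and *Fosl2*, which encode the later and longer-lived Fra-1 and Fra-2 proteins, were lowest in URE-AML. *Fosl1* had 8.66, 11.1 and 5.92 CPM in Hox-WT, 16, 11.2 and 7.46 CPM in Hox-URE and 4.36, 6.47 and 3.91 CPM in URE-AML. *Fosl2* had 24.9, 22.3 and 19.3 CPM, 33.9, 24.5 and 17.4 CPM, and 17.2, 15.8 and 10.3 CPM in the same order. For both genes URE-AML lay below Hox-URE in every library, although the highest URE-AML and the lowest Hox-URE library came close. URE-AML was lower than Hox-URE 2.37-fold for *Fosl1* (log2 -1.24 ± 0.33 SE, edgeR adjusted p = 0.00788) and 1.75-fold for *Fosl2* (log2 -0.81 ± 0.25 SE, edgeR adjusted p = 0.0187).

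The *Fosl2* call rested on single libraries. It was lost without library 1 of Hox-URE (log2 -0.54, edgeR adjusted p = 0.0643), without library 3 of URE-AML (log2 -0.61, edgeR adjusted p = 0.068) and when tested against a fold change of 1.5 (edgeR adjusted p = 0.197). Against Hox-WT, URE-AML had log2 -0.81 ± 0.33 SE for *Fosl1* and -0.61 ± 0.25 SE for *Fosl2*, and neither passed (edgeR adjusted p = 0.0563 and 0.0589). Both were close to the threshold. *Fosl1* passed in 9 of 19 alternative fits and *Fosl2* in 7 of 19. Leaving out 1 library was enough for *Fosl1* (library 3 of Hox-WT, 1 or 3 of Hox-URE or 2 of URE-AML, log2 -1.05 to -0.82) and for *Fosl2* (library 1 or 3 of Hox-URE or 1 of URE-AML, log2 -0.76 to -0.62). Hox-URE against Hox-WT gave log2 0.44 for *Fosl1* (95% interval -0.27 to 1.14) and 0.19 for *Fosl2* (-0.36 to 0.75), neither called, and the *Fosl2* value turned to -0.08 without library 1 of Hox-URE.

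*Batf*, which lacks the activation domain of Fos and competes with it for Jun, was lower in both URE lines by less than the fold threshold. Its levels were 20.7, 22.3 and 20 CPM in Hox-WT, 11.7, 16.2 and 17.4 CPM in Hox-URE and 13.4, 14.1 and 15.1 CPM in URE-AML. Every URE library lay under every Hox-WT library. The level in Hox-URE was 0.715 times that of Hox-WT (log2 -0.48 ± 0.15 SE, edgeR adjusted p = 0.0202) and that in URE-AML 0.675 times (log2 -0.57 ± 0.15 SE, edgeR adjusted p = 0.0083). Both adjusted p were under 0.05 while the fold changes stayed under 1.5, so *Batf* was not called. It passed the fold threshold for Hox-URE with scaling by library size only (log2 -0.59, edgeR adjusted p = 0.0055, with a median of -0.08 over all genes) and without library 3 of that line (log2 -0.61, edgeR adjusted p = 0.0123), and for URE-AML without library 3 of Hox-WT or of URE-AML (log2 -0.61 both times). Between the URE lines the log2 fold change was -0.08 (95% interval -0.42 to 0.25).

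On chromosome 12, *Jdp2*, the neighbour between *Fos* and *Batf*, was called higher in URE-AML than in both other lines. *Jdp2* stood at 14.1, 14.8 and 14.9 CPM in Hox-WT, 13.8, 12.6 and 12.5 CPM in Hox-URE and 46.4, 50.3 and 55.8 CPM in URE-AML. Thus *Fos* was called higher in both URE lines, *Jdp2* in URE-AML alone against Hox-WT (3.49-fold, edgeR adjusted p = 2.51e-07), and *Batf* in neither. *Jdp2* was also 3.91-fold above Hox-URE in URE-AML (edgeR adjusted p = 1.61e-07).

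*Atf3*, a stress-induced gene, was low and was carried by 1 library. It had 0, 9 and 0 counts in Hox-WT, 82, 14 and 8 counts in Hox-URE and 7, 4 and 3 counts in URE-AML, or 2.99 CPM in library 1 of Hox-URE and 0 to 0.58 CPM elsewhere. Summed over libraries, Hox-URE had 13.6 times the level of Hox-WT (exact 95% interval 6.88 to 30.5, counting error only). Without library 1 of Hox-URE the ratio was 4.67 (2.07 to 11.5), and without library 2 of Hox-WT that line had 0 counts. With no filter on low counts *Atf3* was tested and called, above Hox-WT in Hox-URE (log2 3.58 ± 0.92 SE, edgeR adjusted p = 0.00377) and below Hox-URE in URE-AML (log2 -2.69 ± 0.87 SE, edgeR adjusted p = 0.0177). With the filter and 1 library left out, *Atf3* was tested in 7 of 9 fits, though not without library 1 or 2 of Hox-URE, and was called in 5 of the 7 and 4 of the 7 for these comparisons. It passed the filter only through those libraries of Hox-URE, the line where it was high, so these calls are not support for a difference. By summed counts URE-AML had 0.139 times the level of Hox-URE (0.0733 to 0.243), whereas without library 1 Hox-URE had 2.48 times the level of URE-AML (1.22 to 5.25).

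The remaining members were near the floor. *Fosb*, a close relative of *Fos*, had 0 to 0.277 CPM in Hox-WT, 0.219 to 0.332 CPM in Hox-URE and 0.121 to 0.987 CPM in URE-AML. *Batf3*, needed for a class of dendritic cells, had 0 to 0.138 CPM, 0 to 0.328 CPM and 0.0858 to 0.242 CPM, and no library held over 9 counts. With no filter neither was called, with edgeR adjusted p of 0.0853 to 0.857. *Fosb* had 37 counts in URE-AML and 12 in Hox-WT, a ratio of 3.73 (exact 95% interval 1.9 to 7.86, counting error only), while libraries of these lines overlapped. Without library 3 of URE-AML, which held 23 of the 37 counts, the ratio was 2.13 (0.914 to 5.04), and without library 3 of Hox-WT, with 8 of the 12, it was 7.32 (2.63 to 28.3). Without library 1 of URE-AML the ratio was 5.34 (2.7 to 11.3), and *Fosb* then passed the filter and was called (log2 2.38 ± 0.81 SE, edgeR adjusted p = 0.0334), the single call among the 7 fits without 1 library that tested it. *Fosb* passed the filter only through libraries 2 and 3 of URE-AML, where it was highest, so this call is not support for a difference. A difference in *Batf3*, with 4, 9 and 11 counts summed over Hox-WT, Hox-URE and URE-AML, was not detectable at this depth.

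Library 1 of Hox-URE was the highest of its line for 6 of the 10 genes, *Junb*, *Fos*, *Fosl1*, *Fosl2*, *Batf3* and *Atf3*. Without it, *Fos* in Hox-URE was still called against Hox-WT (log2 1.18, the lowest of its 19 alternatives). Library 2 of Hox-WT was also the highest of its line for 6 genes, and library 1 of URE-AML for 5.

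**Figure D2:**
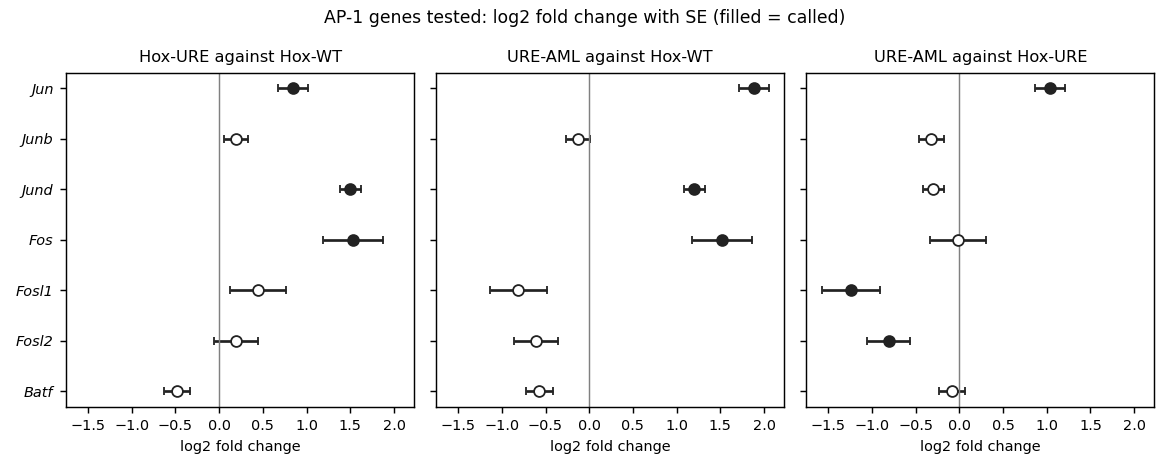
Log2 fold change with its SE (bars) of the 7 tested AP-1 genes in the 3 comparisons, with filled points for called genes. *Jun*, *Jund* and *Fos* lie to the right of 0 in both URE lines against Hox-WT, and *Fosl1* (-1.24) and *Fosl2* (-0.81) lie to the left in URE-AML against Hox-URE.

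To compare genes with each other, CPM was divided by the length in kb of all annotated exons of a gene. The order in Hox-WT was *Jund* (33.2 CPM per kb), *Junb* (16.4), *Batf* (14.9), *Fosl1* (4.21), *Fosl2* (2.29), *Jun* (1.42) and *Fos* (0.496), followed by *Atf3*, *Batf3* and *Fosb* under 0.05 CPM per kb. Libraries of *Junb* and *Batf* overlapped there, as did those of *Atf3*, *Batf3* and *Fosb*, while other neighbours were apart. *Jun*, which gave the family its name, was thus one of its scarcer transcripts.

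Hox-URE had the same order, with *Jund* at 93.9 CPM per kb, *Junb* at 18.8, *Batf* at 10.7 and *Fosl1* at 5.68. *Fosl2* (2.61 CPM per kb) overlapped *Jun* (2.53), and *Fos* (1.44) overlapped *Atf3* (0.616). In URE-AML *Jun* moved up to the fourth place with 5.22 CPM per kb, above *Fosl1* (2.41) in every library and behind *Batf* (10.1). *Fosl2* (1.49) and *Fos* (1.43) overlapped in that line. The number of *Fos* transcripts per length therefore stayed below that of every Jun gene in the 3 lines.

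The summed level of the 10 genes in Hox-WT was 73.0 ± 5.42 CPM per kb, that in Hox-URE 136 ± 4.18 and that in URE-AML 112 ± 11.6 (SD, n = 3). *Jund* alone held 45.4% ± 1.55 of the Hox-WT sum, 68.8% ± 3.08 of the Hox-URE sum and 67.6% ± 5.38 of the URE-AML sum (SD, n = 3). With the longest transcript as length these shares were 38.5%, 63.2% and 62.1%. Jun genes together made up 69.9%, 84.5% and 85.9% of the sum in the 3 lines in that order, the Fos genes 9.54%, 7.16% and 4.90%, and *Batf*, *Batf3* and *Atf3* 20.6%, 8.38% and 9.24%. The summed level of the Fos genes did not follow their share, at 7.02 ± 1.56, 9.78 ± 3.41 and 5.42 ± 0.815 CPM per kb (SD, n = 3). Library ranges of the Jun share did not overlap between Hox-WT (68.9 to 71.1%) and the URE lines (83.2 to 87.9%). *Batf* alone held 20.5% of the Hox-WT sum, against 7.89% for Hox-URE and 9.07% for URE-AML, a larger drop than that in its CPM.

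**Figure D3:**
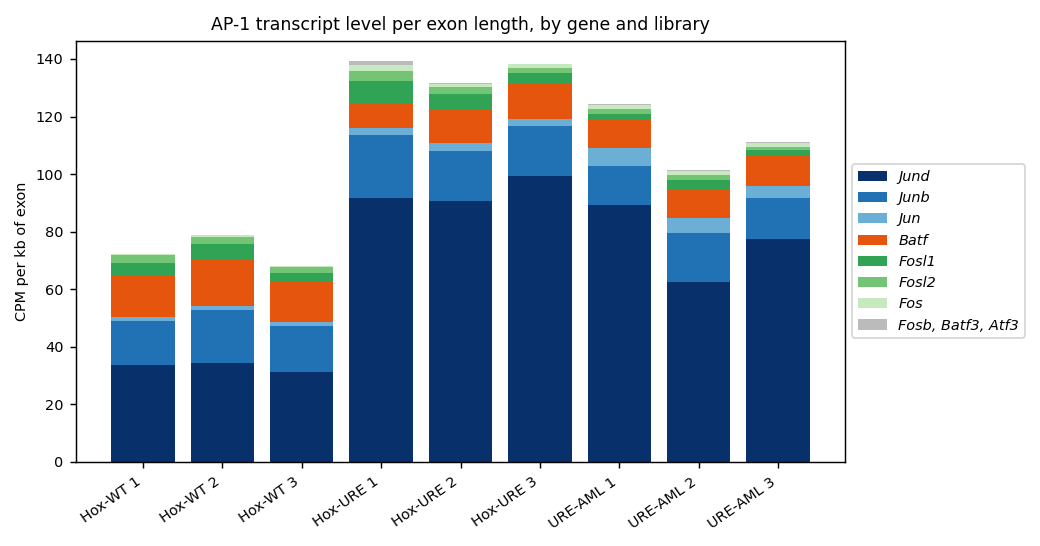
Stacked bars of CPM per kb of exon for the AP-1 genes in each of the 9 libraries, with *Fosb*, *Batf3* and *Atf3* included. The *Jund* segment accounts for most of the difference between Hox-WT (sum 73.0 CPM per kb on average) and the URE lines (136 and 112 CPM per kb).

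The deleted enhancer belongs to *Spi1*, so its level per unit of *Jun* was set beside the family. *Spi1* had 110, 101 and 96.5 CPM in Hox-WT, 0.0364, 0.0414 and 0 CPM in Hox-URE (2 counts in all) and 2.5, 5.52 and 6.35 CPM in URE-AML. Per kb of exon, there were 26.2 to 27.8 *Spi1* transcripts for each *Jun* transcript in Hox-WT. The value was 0 to 0.00566 in Hox-URE and 0.148, 0.389 and 0.574 in libraries 1 to 3 of URE-AML. *Jun* exceeded *Spi1* in all 6 URE libraries and in no Hox-WT library.

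Partners of PU.1 and Batf at composite sites differed between the URE lines. *Irf4* had 0 counts in all 6 Hox libraries and 12.9, 4.42 and 5.36 CPM in URE-AML, at least 67.2-fold above Hox-WT and at least 49.3-fold above Hox-URE, from the mean against the highest floor of 3 counts per library. Without library 1 of URE-AML these bounds were 43 and 32. *Irf8* stood at 7.44 ± 1.78 CPM in Hox-WT, 0.17 ± 0.0413 CPM in Hox-URE and 4.16 ± 2.45 CPM in URE-AML (SD, n = 3), with Hox-URE called 42.8-fold below Hox-WT (edgeR adjusted p = 2.64e-05). URE-AML exceeded Hox-URE 24-fold for *Irf8* (edgeR adjusted p = 6.49e-05) and did not pass against Hox-WT (log2 -0.84 ± 0.4 SE, edgeR adjusted p = 0.0994). Without library 1 of URE-AML the latter was called lower (log2 -1.36, edgeR adjusted p = 0.0146), and with 1 library left out it ranged from -1.36 to -0.47. *Csf1r*, the M-CSF receptor and a joint PU.1 and Jun target, had 0.487, 0.893 and 0.969 CPM in Hox-WT, 0 counts in Hox-URE and 1 count in URE-AML. This list holds 7 genes, of which 1 was called higher and 3 lower for Hox-URE and 3 higher and 2 lower for URE-AML, each relative to Hox-WT. Between the URE lines 4 were higher in URE-AML. The median log2 fold change of the list was 0, 0.35 and 1.95, taking the comparisons in that order, here and in the lists that follow, with 0 over all genes each time. Of the tested genes of the list 57.1%, 71.4% and 57.1% were called, against 37.2%, 43.2% and 42.7% of all genes.

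Other leucine zipper genes that can pair with or replace AP-1 members were tested for 9 of 12 listed. Hox-URE gave 4 higher and 1 lower against Hox-WT, and URE-AML 2 higher, with medians of 0.43, 0.29 and -0.13. Calls took in 55.6%, 22.2% and 44.4% of those tested, against 37.2%, 43.2% and 42.7% of all genes. *Atf7*, an Atf-group partner of Jun, was 2.15-fold higher in Hox-URE (edgeR adjusted p = 0.000113). Between the URE lines it was 1.6-fold lower in URE-AML (edgeR adjusted p = 0.00205), under the fold threshold without library 1 of Hox-URE (log2 -0.51). *Batf2*, the third Batf gene, fell 4.46-fold from 0.514 ± 0.174 to 0.109 ± 0.0573 CPM (SD, n = 3, edgeR adjusted p = 0.00411). *Mafg*, a small Maf protein, was 1.81-fold above Hox-WT in both URE lines (edgeR adjusted p = 0.00139 for Hox-URE and 0.00115 for URE-AML). *Maff*, another small Maf, had 13.2 CPM in library 1 of Hox-URE, 4.64 and 2.09 CPM in the other libraries of that line and 1.31 to 2.75 CPM elsewhere. It was called above Hox-WT in Hox-URE and below Hox-URE in URE-AML (edgeR adjusted p = 0.0287 and 0.0286). Both calls were lost without library 1 of Hox-URE (log2 0.7 and -0.69), the first also without library 1 or 3 of Hox-WT and the second without any 1 library of URE-AML. URE-AML against Hox-URE gave 1 higher and 3 lower, 4 in all, and only 1 was left without library 1 of Hox-URE and 2 without library 3 of URE-AML.

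**Figure D4:**
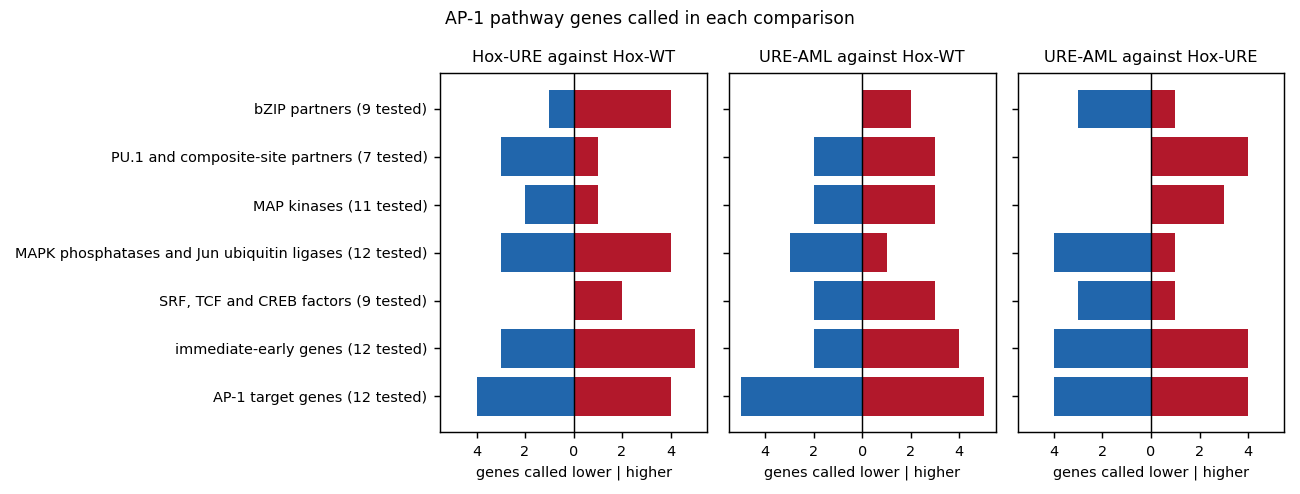
Numbers of genes called lower (to the left) and higher (to the right) in each list of the AP-1 pathway for the 3 comparisons, with the number tested in each label. AP-1 target genes were called in both directions throughout, 4 lower and 4 higher of 12 in Hox-URE against Hox-WT (66.7%, against 37.2% of all genes).

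MAP kinases phosphorylate Jun and Fos, and 11 of 12 listed kinase genes were tested. In Hox-URE 1 was called higher and 2 lower than in Hox-WT. *Mapk8*, which encodes the Jun kinase JNK1, fell from 21, 19.6 and 21.5 CPM in Hox-WT to 12.3, 11.9 and 11.5 CPM in Hox-URE and 8.97, 9.66 and 10 CPM in URE-AML (1.73-fold and 2.17-fold lower, edgeR adjusted p = 0.000168 and 1.16e-05). *Mapk3*, the gene of ERK1, went up instead, at 68.5, 77.8 and 77.7 CPM, 92.7, 139 and 131 CPM, and 250, 226 and 237 CPM. The gain over Hox-WT was 1.62-fold in Hox-URE (edgeR adjusted p = 0.00203) and 3.19-fold in URE-AML (edgeR adjusted p = 4.27e-06). The former fell under the fold threshold without library 2 of Hox-URE (log2 0.57). *Map2k1*, the ERK kinase MEK1, was 2.08-fold above Hox-WT in URE-AML (edgeR adjusted p = 2.54e-05), and *Map2k6*, a p38 kinase kinase, was 2.22-fold below Hox-WT in Hox-URE and 2.04-fold in URE-AML (edgeR adjusted p = 0.000462 and 0.000742). URE-AML exceeded Hox-URE 1.97-fold for *Mapk3* and 1.75-fold for *Map2k1* (edgeR adjusted p = 0.000189 and 0.000168). *Map2k3*, another p38 kinase kinase, was 1.51-fold above Hox-URE in URE-AML (edgeR adjusted p = 0.000167), and under the threshold without library 2 or 3 of Hox-URE or 1 of URE-AML (log2 0.54 to 0.58). In URE-AML 3 kinase genes were called higher and 2 lower than in Hox-WT, and 3 higher than in Hox-URE. Medians over the kinases were -0.01, 0.3 and 0.13. Their shares called were 27.3%, 45.5% and 27.3%, against 37.2%, 43.2% and 42.7% of all genes.

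All 12 listed genes for MAP kinase phosphatases and for ubiquitin ligases of Jun were tested. Hox-URE had 4 higher and 3 lower than Hox-WT, URE-AML 1 higher and 3 lower than Hox-WT, and URE-AML 1 higher and 4 lower than Hox-URE, with log2 medians of 0.17, -0.25 and -0.24. As shares, 58.3%, 33.3% and 41.7% were called, against 37.2%, 43.2% and 42.7% of all genes. *Dusp4*, a nuclear phosphatase of ERK and JNK, had 20.4, 23.4 and 16.9 CPM in Hox-WT, 38.1, 38.5 and 32.6 CPM in Hox-URE and 10.6, 7.85 and 4.63 CPM in URE-AML, 4.72-fold below Hox-URE in URE-AML (edgeR adjusted p = 3.78e-05). It was called against Hox-WT as well, higher in Hox-URE (log2 0.85, edgeR adjusted p = 0.0129, and 0.0568 without library 3 of Hox-WT) and lower in URE-AML (log2 -1.39, edgeR adjusted p = 0.000821). *Dusp16*, which acts on JNK, was 2.17-fold above Hox-WT in Hox-URE (edgeR adjusted p = 0.00174). *Dusp10*, a phosphatase of JNK and p38, had 0.075, 0.571 and 0.415 CPM in Hox-WT, 0.765, 0.87 and 1.58 CPM in Hox-URE and 2.5, 2.66 and 2.32 CPM in URE-AML. It was 6.92-fold above Hox-WT in URE-AML (edgeR adjusted p = 0.00127). Its call in Hox-URE (log2 1.56, edgeR adjusted p = 0.0347) was lost without library 1 or 3 of Hox-WT, 2 or 3 of Hox-URE or any 1 library of URE-AML (edgeR adjusted p = 0.0509 to 0.125). *Dusp2*, a nuclear phosphatase, was 2.26-fold below Hox-URE in URE-AML (edgeR adjusted p = 0.000172). *Dusp7*, an ERK phosphatase, was 2.44-fold below Hox-WT in Hox-URE (edgeR adjusted p = 0.00766) and 2.19-fold above Hox-URE in URE-AML (edgeR adjusted p = 0.0133, and 0.0582 without library 1 of URE-AML). *Fbxw7*, a ligase subunit that marks Jun for degradation, was lower in both URE lines, 1.89-fold below Hox-WT in Hox-URE and 1.84-fold in URE-AML (edgeR adjusted p = 0.00191 and 0.00205).

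Factors that switch on *Fos* through its serum and cyclic AMP response elements were all tested, 9 of 9. *Elk1*, a partner of serum response factor that ERK activates, had 1.99, 1.61 and 1.97 CPM in Hox-WT, 15.2, 17.4 and 14.2 CPM in Hox-URE and 8.72, 9.23 and 6.74 CPM in URE-AML. It rose 8.39-fold in Hox-URE (edgeR adjusted p = 6.73e-07) and 4.43-fold in URE-AML (edgeR adjusted p = 4.54e-06). No library of either URE line overlapped Hox-WT. A part of *Elk1* in the level of *Fos* was not tested. *Crem*, a CRE-binding factor, was 4.28-fold above Hox-WT in Hox-URE (edgeR adjusted p = 0.000181) and 7.2-fold below Hox-URE in URE-AML (edgeR adjusted p = 2.42e-05). *Elk1* also differed between the URE lines, 1.9-fold lower in URE-AML (edgeR adjusted p = 0.00092). *Elk3*, a relative of *Elk1*, was 2.06-fold above Hox-WT in URE-AML (edgeR adjusted p = 0.000583). *Mrtfa*, the gene of a cofactor of serum response factor, was 1.73-fold below Hox-WT and 1.61-fold below Hox-URE in URE-AML (edgeR adjusted p = 0.000145 and 0.000389). Called over the list were 2 genes, both higher, for Hox-URE and 3 higher with 2 lower for URE-AML, each relative to Hox-WT. Between the URE lines, URE-AML had 1 higher and 3 lower. Log2 medians were 0.14, -0.22 and -0.31. Called shares were 22.2%, 55.6% and 44.4% of the list, against 37.2%, 43.2% and 42.7% of all genes.

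Of 13 other immediate-early genes 12 were tested, and they were called in both directions. Hox-URE had 5 higher and 3 lower than Hox-WT, and URE-AML 4 higher and 2 lower. *Klf6* had 7.95, 9 and 11.1 CPM in Hox-WT, 55.5, 61.8 and 46.8 CPM in Hox-URE and 118, 85.3 and 67.9 CPM in URE-AML (5.84-fold and 9.65-fold above Hox-WT, edgeR adjusted p = 6.83e-06 and 7.61e-07). *Egr1* had 4.57, 28.4 and 5.43 CPM in Hox-WT, 110, 99 and 66.5 CPM in Hox-URE and 20.4, 38.1 and 15.1 CPM in URE-AML. It was 7.18-fold above Hox-WT in Hox-URE (edgeR adjusted p = 0.00403), and without library 2 of Hox-WT, the highest of its line for *Egr1* and for *Fos* (1.64 CPM), the log2 fold change was 4.2 instead of 2.84. *Nr4a1* was called lower than in Hox-WT in both URE lines, for Hox-URE only with library 2 of Hox-WT (log2 -2.29, and -1.25 without it, edgeR adjusted p = 0.0133 and 0.0846). In URE-AML it had 4 counts against 223 for Hox-WT, a ratio of 46.1 (exact 95% interval 17.7 to 171, counting error only), and its fitted log2 value of -5.4 became -4.36 without library 2 of Hox-WT. *Btg2*, an antiproliferative gene, had 0.104 to 0.143 CPM in Hox-WT (3 to 4 counts a library), 0.91, 1.62 and 1.63 CPM in Hox-URE and 3.19, 4.04 and 3.95 CPM in URE-AML, 11.1-fold and 29.9-fold above Hox-WT (edgeR adjusted p = 4.77e-05 and 2.31e-06). Below Hox-URE in URE-AML were *Nr4a1* (log2 -3.11, edgeR adjusted p = 0.0174), *Egr2* (log2 -2.58, edgeR adjusted p = 0.045) and *Egr1* (log2 -1.91, edgeR adjusted p = 0.0225). The call of *Nr4a1* was lost without library 3 of URE-AML. That of *Egr1* was lost without library 2 of Hox-URE or 1 or 3 of URE-AML, and that of *Egr2* without any 1 library of these lines but library 2 of URE-AML (log2 -3.57 without it). URE-AML against Hox-URE gave 4 higher and 4 lower, 8 in all, which became 4 without library 1 or without library 3 of URE-AML. The list had log2 medians of 0.35, 0.39 and -0.08. Among its tested genes 66.7%, 50% and 66.7% were called, against 37.2%, 43.2% and 42.7% of all genes.

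AP-1 target genes were called in both directions, with log2 medians of -0.11, 0.24 and 0.73. Of 14 listed 12 were tested. Relative to Hox-WT, calls split into 4 higher and 4 lower for Hox-URE and 5 higher and 5 lower for URE-AML, and 4 higher and 4 lower between the URE lines. These were 66.7%, 83.3% and 66.7% of the targets tested, against 37.2%, 43.2% and 42.7% of all genes. *Mmp13*, whose promoter is printed above, had 0, 2 and 1 counts in Hox-WT but 4740, 5890 and 6060 CPM in Hox-URE and 7.31, 7.8 and 2.92 CPM in URE-AML. The level in URE-AML was 927-fold lower than that of Hox-URE (edgeR adjusted p = 2.26e-08). *Mmp13* was called higher than in Hox-WT in both URE lines (edgeR adjusted p = 1.48e-08 and 5.3e-06), and a link to AP-1 levels was not tested. By summed counts URE-AML had 413 against 3 for Hox-WT, a ratio of 167 (exact 95% interval 56.6 to 811, counting error only), and its fitted log2 value of 7.2 became 8.02 without library 2 of Hox-WT.

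*Spp1*, the gene of osteopontin, had 1.72, 1.79 and 1.45 CPM in Hox-WT, 346, 274 and 171 CPM in Hox-URE and 1880, 619 and 346 CPM in URE-AML, 159-fold and 571-fold above Hox-WT (edgeR adjusted p = 1.49e-05 and 2.84e-06). Without library 1 of URE-AML the log2 value of the latter was 8.19 instead of 9.16. *Ccnd1*, the gene of cyclin D1 and a textbook Jun target in the cell cycle, was called lower in both URE lines (edgeR adjusted p = 1.94e-06 for Hox-URE), with 7.91, 6.25 and 5.67 CPM in Hox-WT, 1 count in all Hox-URE libraries and 0.162, 0.0476 and 0.0429 CPM in URE-AML (72.4-fold lower than in Hox-WT, edgeR adjusted p = 2.2e-06, and log2 -7.04 instead of -6.18 without library 1 of URE-AML). *Il6*, an inflammatory cytokine, was at 4.63 ± 0.642, 2.82 ± 0.572 and 0.101 ± 0.0986 CPM (SD, n = 3) in the order of the lines above, 26.6-fold below Hox-URE in URE-AML (edgeR adjusted p = 1.51e-05, and log2 -5.86 instead of -4.73 without library 3 of URE-AML). *Mt2*, a metallothionein gene, was at 225 ± 16.3 CPM in Hox-WT, 208 ± 18.6 CPM in Hox-URE and 14.3 ± 2.52 CPM in URE-AML (SD, n = 3), 14.5-fold below Hox-URE in URE-AML (edgeR adjusted p = 1.44e-08). *Plaur*, the gene of the urokinase receptor, had 15.5, 16.8 and 15.4 CPM in Hox-WT, 27.9, 15.3 and 15.9 CPM in Hox-URE and 58.5, 36.6 and 42.9 CPM in URE-AML. Its URE-AML level was 2.89-fold that of Hox-WT and 2.33-fold that of Hox-URE (edgeR adjusted p = 0.000333 and 0.00143). Of the 4 target genes with TGANTCA letters in the window, *Il6* and *Mt2* were thus lowest in URE-AML, *Plaur* was highest there and *Mmp13* was highest in Hox-URE.

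**Figure D5:**
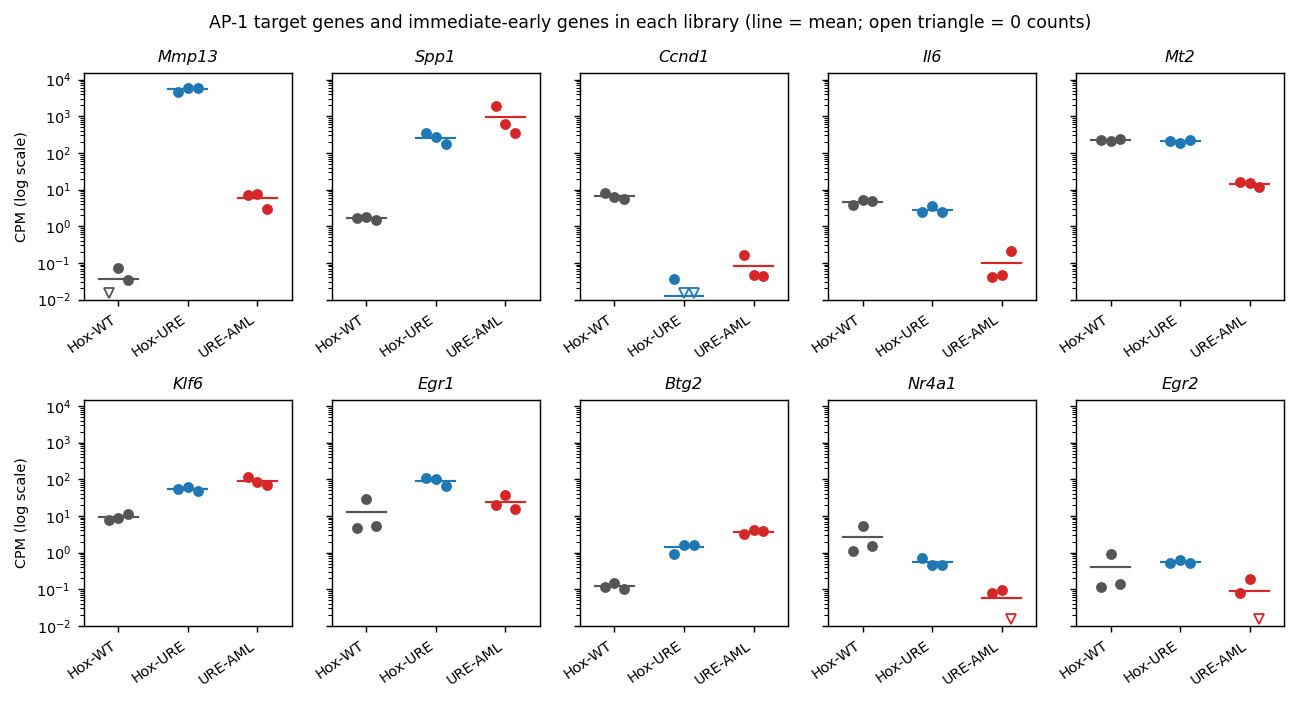
CPM on a log axis of 5 AP-1 target genes (upper row) and 5 immediate-early genes (lower row) in the 9 libraries, by line, with a bar at the mean and open triangles for 0 counts. *Mmp13* reaches 4740 to 6060 CPM in Hox-URE alone, *Spp1* is high in both URE lines, and *Ccnd1* is near the floor in both.

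The lines also differed in markers of cell types. The 8 neutrophil markers summed to 4010 to 6870 CPM in Hox-WT, 134 to 144 CPM in Hox-URE and 9150 to 20900 CPM in URE-AML, with *S100a9* and *Ltf* at 0 in Hox-URE. Relative to Hox-WT, all 8 were called lower for Hox-URE, while URE-AML had 7 called higher and 1 lower. The latter was *Mpo*, most of the Hox-WT sum, with means of 5040 CPM in Hox-WT, 5.04 CPM in Hox-URE and 192 CPM in URE-AML. The 7 basophil and mast cell markers summed to 607 to 928, 1800 to 6370 and 43.5 to 78.5 CPM, and the 7 monocyte and macrophage markers to 302 to 311, 843 to 946 and 16.8 to 30 CPM, in the same order. Of 6 basophil and mast cell markers tested, Hox-URE had 5 called higher relative to Hox-WT, and URE-AML had 4 lower and 1 higher, *Mcpt8* (5.4 to 13.3 CPM in Hox-WT and 23.5 to 50.2 CPM in URE-AML). The monocyte and macrophage sum of Hox-URE was nearly all *Ccr2* (840 to 939 CPM), with 5 of the 7 markers called lower than in Hox-WT and 1 higher (median log2 -2.87). In URE-AML 4 were lower than in Hox-WT (median log2 -2.65). Over all genes tested, 37.2% were called for Hox-URE and 43.2% for URE-AML relative to Hox-WT. The 6 progenitor markers summed to 1950 to 2230, 859 to 1310 and 110 to 113 CPM, with *Hoxa9* at 0 in all libraries. Dendritic markers reached 31 CPM at most, erythroid 14.8, megakaryocyte 51 and lymphoid 47.1 CPM. *Jun*, *Jund* and *Fos* were called higher in both URE lines. The progenitor sum was lower in both, as was the median of the monocyte and macrophage markers. The monocyte and macrophage sum was higher than Hox-WT in Hox-URE and lower in URE-AML. The neutrophil sum and the basophil and mast cell sum also differed from Hox-WT in opposite directions in the URE lines. The part of the cell types in the AP-1 levels was not tested.

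Genes with a pattern most like that of a member were sought among tested genes with a mean of at least 10 CPM, by Pearson's r of log2 CPM over the 9 libraries, which share lines and depth. *Jun* was most like *Washc5* (r = 0.985), *Ift172* (0.985) and *Pls3* (0.984), and 460 of 8616 genes had r over 0.9. *Ift172*, for example, went from a mean of 14.9 CPM in Hox-WT through 24.2 CPM in Hox-URE to 43.8 CPM in URE-AML. *Fos* was most like *Stx6* (0.981), *Flot1* (0.964) and *Fam204a* (0.964), with 135 genes over 0.9. *Batf* was most like *Fbxo21* (0.979), *Lrrcc1* (0.973) and *Pimreg* (0.967), with 72 of 8615 over 0.9. None of these 9 genes belongs to the AP-1 family or to a list of its pathway.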

How the data were processed

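Reads of stranded poly-A libraries were quantified by the authors with Salmon (GRCm38 per the labels) and collapsed to genes by tximport. Deposited values are whole-number estimated counts. The transcriptome release and a length correction were not given in the sources used here, so counts may shift with isoform usage. Line and library number follow the labels, and no columns were left unassigned. Within lines, libraries differed by a chi-square per degree of freedom of 18.4 to 102, so none was a copy. Scaling factors (TMM) lay between 0.938 and 1.04, and the biological coefficient of variation shared by all genes was 0.173.

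The filterByExpr function (minimum count 10) removed genes holding 0.0499% of counts. One edgeR 4.0.16 quasi-likelihood model (R 4.3.3) was fitted to all 9 libraries with line as factor, tests were two-sided, and Benjamini-Hochberg adjustment covered all 13082 genes. The study stated DESeq2 with these thresholds, which served as an alternative (1.42.0). SE was derived from the log2 fold change and F, as |log2| over root F. Count ratios carry exact binomial intervals at 95%. Code was tested on simulated data.

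Exon lengths came from GENCODE M21 (GRCm38), promoters from RefSeq (GRCm38.p6). The core TGACG was added after seeing the data. Figures were drawn with matplotlib 3.10.9.

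The 10 genes and all lists were chosen with earlier results of these data known. Named were all 10 members, *Spi1*, *Csf1r*, *Irf4* and *Irf8*, any marker as a level, the 3 genes most like *Jun*, *Fos* and *Batf*, and up to 3 called genes with the largest change per list and comparison. Where leaving out 1 library ended a call printed for these list genes, that library is named. *Plaur*, named for its promoter letters, and its test are outside that rule, and it was chosen after its values were seen.

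Results were recomputed with size factors of the DESeq2 kind within edgeR, with upper-quartile factors, by library size alone, without the filter, with a minimum of 10 counts in each library, on the 6 libraries of a comparison, blocked on replicate number, in DESeq2, ignoring fold size, with glmTreat against a 1.5-fold change, and leaving out each library. For lists and other genes these were added after seeing the data.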

Additional observations from a re-analysis of the deposited data

How the results depend on the processing

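Of the 399 alternative values for the 21 fold changes of members, 364 kept direction and call, and 7 of the 9 calls held in all 19 alternatives. The exceptions were *Jun* in Hox-URE and *Fosl2* in URE-AML against Hox-URE, described above. The count of members called in URE-AML against Hox-WT rose from 3 to 5 with upper-quartile factors, no filter, only the 6 libraries compared, the replicate block and DESeq2. *Fosl1* with *Fosl2*, or with *Batf* for upper-quartile factors, were added as lower. Leaving out 1 library gave 3 to 5 in both comparisons against Hox-WT and 2 to 4 between the URE lines. *Atf3* and *Fosb* were each tested in 7 of these 9 fits, since the filter then keeps more genes, and gave 5, 0 and 4 calls and 0, 1 and 0 calls in the 3 comparisons in the order above. *Atf3* passed the filter only through Hox-URE and *Fosb* only through URE-AML, the lines where they were high. Their calls are thus not support for a difference.

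Direction turned only for values that were not called. Between the URE lines *Fos* gave 0.09 with library size only, 0 with no filter and 0 with the replicate block, with -0.19 to 0.33 when 1 library was left out. *Batf* gave 0.03 with library size only and -0.24 to 0.03 with 1 library left out. *Fosl2* in Hox-URE against Hox-WT gave -0.08 to 0.39, and the target gene *Plaur* in the same comparison -0.03 to 0.45. The cause was not tested.

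Replicate numbers were not treated as pairing the libraries, since not every same-numbered pair correlated above 0.1: the values were 0.271, 0.099 and 0.174 between Hox-URE and Hox-WT, 0.01 to 0.084 between URE-AML and Hox-WT and 0.044 to 0.092 between the URE lines. Differently numbered libraries gave -0.211 to 0.066, -0.067 to 0.01 and -0.089 to 0.04, and 6, 5 and 6 of the 6 libraries correlated best with their own number, a hint from the data and not from the labels. The replicate block moved the genes called from 4873 to 4908, 5648 to 5679 and 5591 to 5584. With library size only, the median of all genes shifted by -0.08 and 0.11 in Hox-URE against Hox-WT and URE-AML against Hox-URE, and the share of called genes that were higher went from 57.2 to 49.6% and from 47.6 to 54.9%.

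List counts moved by over 1.5 times mostly with the filter and the fold threshold. With at least 10 counts in every library, PU.1 partners went from 4, 5 and 4 to 1, 2 and 1 in the 3 comparisons in the order above, immediate-early genes from 8, 6 and 8 to 5, 3 and 5, and targets from 8, 10 and 8 to 4, 5 and 5. With no fold threshold, other leucine zipper genes went from 5 and 2 to 8 and 6 against Hox-WT, and kinases from 5 and 3 to 10 and 6 in the URE-AML comparisons. Tested against a fold change of 1.5, leucine zipper genes went to 3, 1 and 1, phosphatases and ligases from 7, 4 and 5 to 3, 2 and 3, serum and CRE factors from 5 and 4 to 3 and 2 in the URE-AML comparisons, targets to 5 in Hox-URE against Hox-WT and immediate-early genes to 4 between the URE lines. With library size only, leucine zipper genes went from 4 to 2 between the URE lines. Depth limits *Fosb*, *Batf3* and *Atf3*, at 0 to 23 counts outside library 1 of Hox-URE.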
